A study of Arabidopsis thaliana with 9 samples.

Results

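Which processes moved in Arabidopsis roots after the early phase of PAN induction, while PAN transcripts were already abundant, was examined by comparing 24 h with 6 h of induction. The comparison uses 6 of the 9 RNA-seq samples of the study, the 3 libraries labelled 24 h and the 3 labelled 6 h. It covers 17841 of the 33201 rows of the expression table, those whose mean over 0, 6 and 24 h was at least 1 FPKM (sequenced fragments per kilobase of transcript, scaled to library size). The samples are biological replicates by their titles.

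All groups, including the 3 samples at 0 h, are roots of 1 XVE:PAN transgenic line in the Col-0 ecotype, grown for 5 days in all. XVE is a chimeric transcription factor that activates a transgene when it binds estradiol. The 24 h and 6 h groups spent those hours on 10 uM β-estradiol in 1X MS plates containing 1% sucrose, and the 0 h group spent none. The protocol describes roots cut about 0.5 cm from the tip, whereas the source name gives the whole root. No estradiol-treated plants without the transgene and no mock-treated plants at 6 or 24 h were analysed here. The time on estradiol, the hours since transfer and the hour of harvest therefore cannot be told apart in what follows.

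PERIANTHIA (PAN, AT1G68640) is a bZIP transcription factor of the TGA family, whose members bind DNA sites around the letters TGACG. It is known from floral organ number and from the stem cell niche of the root tip, the small group of cells from which all root tissues derive. A root tip joins tissues of very different activity: a meristem of dividing cells that make ribosomes and histones at a high rate, a protective root cap, and differentiating zones where root hairs grow and nutrients such as nitrate are taken up.

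The table holds 1 value per gene and time that the authors pooled from 3 replicates, so no spread between replicates can be given, and the read depth behind the values is unknown. Error between replicates is reflected only in the q-values (p-values adjusted for multiple testing) of the authors' deposited table. A gene was called where that q-value for 24 h against 6 h was below 0.05, and "rose" and "fell" are used of called genes only. Changes are log2((24 h + 1)/(6 h + 1)) of FPKM, which understates the fold change of low genes. Values summed to 989899 at 24 h and 860568 at 6 h. PAN had 1.03, 688 and 385 FPKM at 0, 6 and 24 h, so it fell by 0.83 over the late phase while remaining far above its starting level. Transcripts of the transgene and of the native gene are not separated in these values, and PAN overlaps the annotated gene AT1G68630. The lists below share some members, such as WRKY40 and TGA1, which then count in each.

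Of the 17841 genes tested, 39.4% were called, 19.6% higher and 19.8% lower at 24 h. The median change of all tested genes was 0.03, and the 10th and the 90th percentiles lay at -0.78 and 0.87. A change of at least 1 was reached by 1151 genes that rose (6.45%) and 904 that fell (5.07%), and a change of at least 2 by 64 and 34. The smallest q-value of the authors' deposited table, 0.000358, was shared by 2850 of the called genes, which have no order among themselves. By comparison, 11.3% of the same genes were called for 6 h against 0 h, 3.98% higher and 7.35% lower at 6 h. That comparison shares the 6 h libraries with this one, so its values are only set beside those of the late phase.

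**Figure D1:**
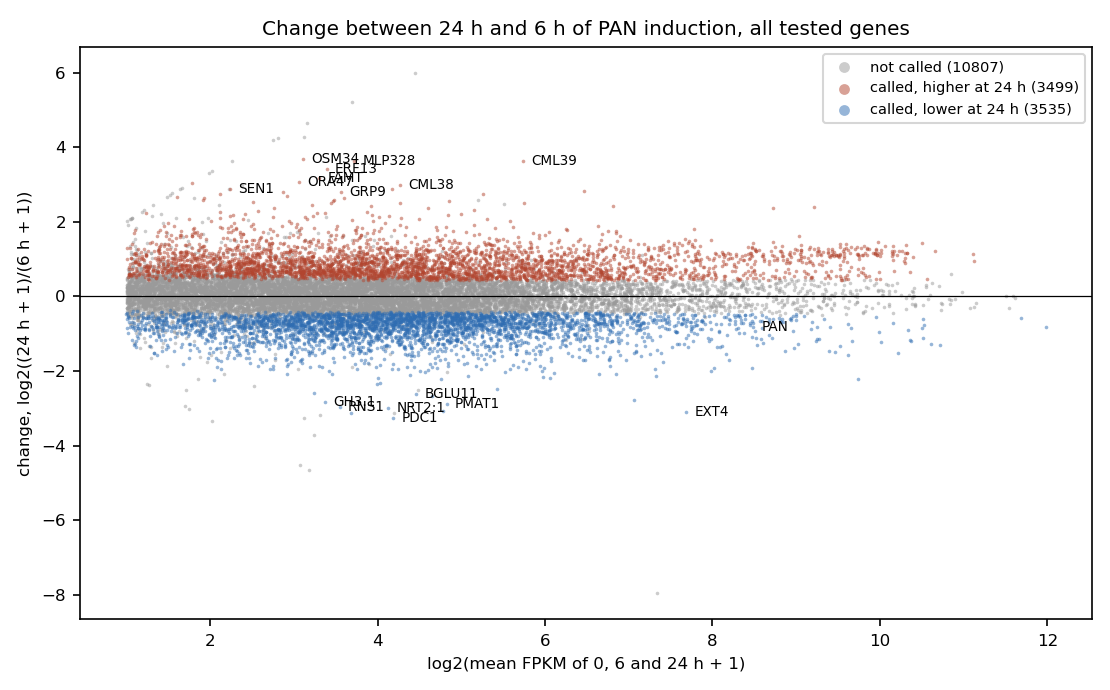
Change between 24 h and 6 h (log2 scale, vertical) against the mean level of each tested gene over 0, 6 and 24 h (log2 scale, horizontal). Each point is 1 gene, red where called higher, blue where called lower and grey where not called, with PAN and named genes of the largest called rises and falls labelled. Called genes occur over the whole range of levels, 3499 above and 3535 below zero.

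The direction of the late changes went with the length of the transcript. Tested genes with a longest spliced transcript of at least 500 and under 1000 bp had a median change of 0.56, and 44.6% of them rose while 5.04% fell. Genes of 3000 bp or more had a median change of -0.46, and 2.18% rose while 51.7% fell. The medians of 6 h against 0 h were 0.03 in both length classes. Over the 17501 tested genes of known length, the change had a Spearman's rho of -0.47 with length. This is a description across genes, which share the same libraries. Medians of the gene lists below are therefore given as computed and with this trend removed. The part of RNA quality or library preparation in the trend was not tested.

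**Figure D2:**
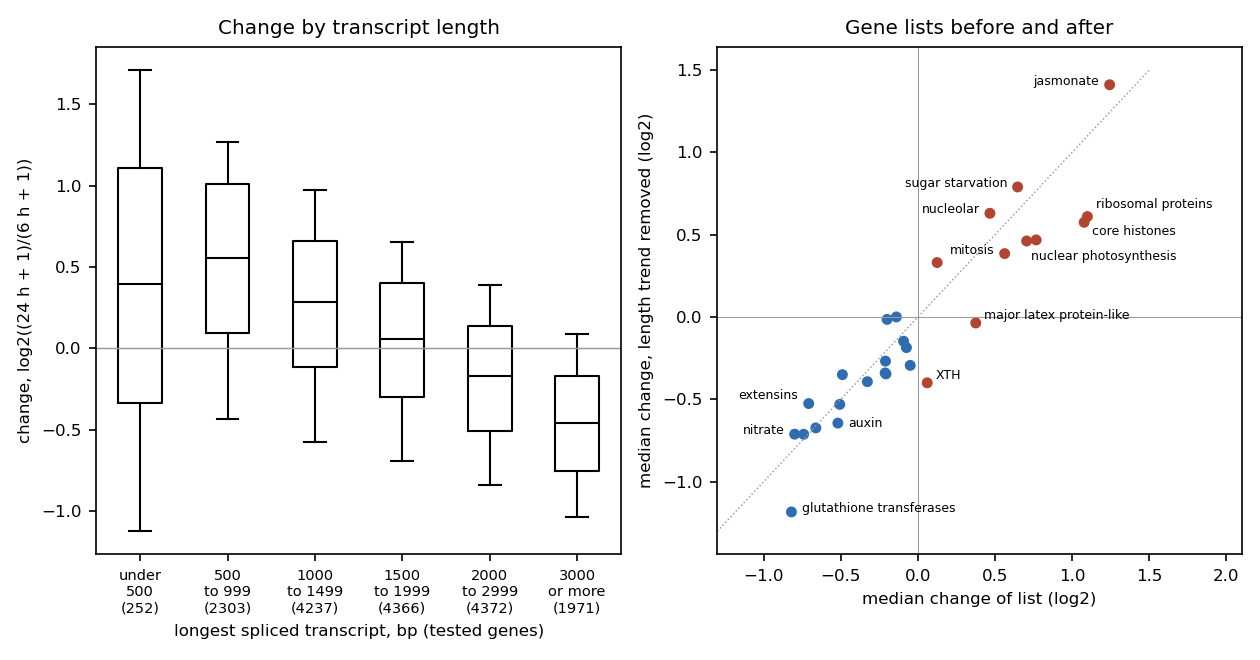
Left, change between 24 h and 6 h (log2) by class of transcript length, with boxes from the lower to the upper quartile, whiskers at the 10th and 90th percentiles and the number of tested genes in brackets. Right, the median change of each gene list as computed (horizontal) and after the length trend was removed (vertical), with points on the dotted line where both are equal. Ribosomal protein and histone lists move from 1.099 and 1.08 to 0.61 and 0.58, whereas the jasmonate list moves from 1.24 to 1.41.

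The groups described below were read from lists of genes with known roles, and 6 promoters are shown first because their motifs return in the results. Each is the 250 bases before the annotated start of the gene, read from the RefSeq TAIR10.1 genome in the direction of transcription, with every match to the motif in capitals on either strand. JAZ8 (AT1G30135; chr1:10596102-10596351 on the plus strand) and AOS (AT5G42650; chr5:17099596-17099845 on the minus strand) are jasmonate genes that rose and hold a G-box, CACGTG, bound by bHLH and bZIP factors. KNOLLE (AT1G08560; chr1:2711001-2711250 on the minus strand), a cytokinesis gene that rose, holds AACGG, the core of the mitosis-specific activator element. FIB1 (AT5G52470; chr5:21293897-21294146 on the plus strand), a nucleolar gene that rose, holds site II, TGGGCC. The ribosomal protein L41 gene AT2G40205 (chr2:16792623-16792872 on the minus strand) rose and holds a telo-box, AAACCCTA. GSTU25 (AT1G17180; chr1:5871774-5872023 on the plus strand), a glutathione transferase gene that fell, holds the TGA core, TGACG.
JAZ8: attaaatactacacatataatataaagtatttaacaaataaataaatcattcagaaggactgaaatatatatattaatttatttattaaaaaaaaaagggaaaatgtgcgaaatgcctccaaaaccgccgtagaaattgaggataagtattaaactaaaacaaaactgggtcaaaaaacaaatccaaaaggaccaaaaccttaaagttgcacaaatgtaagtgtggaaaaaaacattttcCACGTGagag
AOS: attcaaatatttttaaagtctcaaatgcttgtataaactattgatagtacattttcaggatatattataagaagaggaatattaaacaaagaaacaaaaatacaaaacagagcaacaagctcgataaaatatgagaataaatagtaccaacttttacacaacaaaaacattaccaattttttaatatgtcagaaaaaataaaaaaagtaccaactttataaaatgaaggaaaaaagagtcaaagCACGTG
KNOLLE: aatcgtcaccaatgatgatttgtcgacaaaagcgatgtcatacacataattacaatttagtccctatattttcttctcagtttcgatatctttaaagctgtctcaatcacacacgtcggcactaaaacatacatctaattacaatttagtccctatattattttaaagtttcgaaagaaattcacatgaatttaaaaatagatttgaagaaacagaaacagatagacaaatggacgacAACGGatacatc
FIB1: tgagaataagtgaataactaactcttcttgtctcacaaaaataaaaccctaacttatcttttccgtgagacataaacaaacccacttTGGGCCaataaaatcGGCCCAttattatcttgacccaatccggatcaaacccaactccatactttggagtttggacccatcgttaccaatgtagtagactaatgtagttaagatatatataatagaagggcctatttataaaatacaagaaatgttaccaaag
AT2G40205: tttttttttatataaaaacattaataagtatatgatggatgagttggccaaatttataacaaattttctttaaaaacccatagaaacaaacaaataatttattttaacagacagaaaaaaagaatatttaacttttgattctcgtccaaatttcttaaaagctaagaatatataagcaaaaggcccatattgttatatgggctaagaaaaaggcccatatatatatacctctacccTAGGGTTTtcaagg
GSTU25: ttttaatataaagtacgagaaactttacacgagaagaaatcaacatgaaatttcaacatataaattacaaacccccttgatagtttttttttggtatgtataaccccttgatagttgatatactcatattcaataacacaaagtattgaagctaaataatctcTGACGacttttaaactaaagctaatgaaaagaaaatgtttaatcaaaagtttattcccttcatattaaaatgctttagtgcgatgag

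Genes for protein synthesis rose together. Of 277 tested genes whose product name is that of a ribosomal protein, leaving out names that mention plastids or mitochondria, 253 rose and 1 fell, against 19.6% and 19.8% of all tested genes. The 10th and the 90th percentiles of those that rose lay at 0.78 and 1.28, so their changes were alike in size. The median change of the 277 was 1.099, or 0.61 with the length trend removed, and all 253 kept their sign. Summed over the list, transcripts stood at 65799, 74065 and 161460 FPKM at 0, 6 and 24 h. Ribosomal proteins thus held 16.3% of all FPKM at 24 h, against 8.61% at 6 h. At 6 h against 0 h none of these genes had been called higher and 2 lower. The ribosomal protein L14 gene AT4G27090, singled out because it had the highest level of the list at 24 h, had 2655 FPKM at 24 h and 1139 FPKM at 6 h. AT5G18790, a ribosomal L33 family gene among the 3 largest called rises of the list, had 148 FPKM at 24 h and 51.9 FPKM at 6 h. The one gene that fell, AT5G47940, annotated as a ribosomal protein S27, had 8.52 FPKM at 24 h and 14.3 FPKM at 6 h. Another L41 gene, AT3G08520, is listed at 0 at 6 h and at 23.8 FPKM at 24 h and was not called. Ribosomal proteins are encoded by families of near-identical genes, so the split of reads within a family is uncertain. The list was filtered by name only, so it is not limited to ribosomal proteins of the cytosol. AT5G39600, named a 39S ribosomal protein, was among those kept.

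The machinery that builds ribosomes in the nucleolus moved the same way. Of 21 tested nucleolar genes, 11 rose (52.4%, against 19.6% of all tested genes) and none fell, and all 21 had a positive change. The median was 0.47, and 0.63 with the length trend removed, so the list stood higher after that correction. FIB1, a fibrillarin that methylates ribosomal RNA, had 212 FPKM at 24 h and 102 FPKM at 6 h, and its paralog FIB2 had 257 FPKM at 24 h and 135 FPKM at 6 h. SWA1 (AT2G47990), required for ribosomal RNA processing in dividing cells, rose by 0.97 to 23.7 FPKM at 24 h, against 11.6 FPKM at 6 h. CBF5, the pseudouridine synthase of box H/ACA particles, NOP56 of box C/D particles and the nucleolin NUC-L1 rose by 0.73, 0.64 and 0.56. Site II stood in 63.6% of the 11 promoters of nucleolar genes that rose and in 49.8% of the 253 of ribosomal protein genes that rose, against 17.0% of tested genes and 13.7% of all promoters. The telo-box stood in 15.02% of the ribosomal promoters, against 3.56% of tested genes. With the first 50 transcribed bases included, that share was 39.5%, against 5.59%.

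Genes of cell division and chromatin formed a second rising group. Of 26 tested genes of mitosis and cytokinesis, 13 rose (50%, against 19.6% of all tested genes) and 1 fell. The median was 0.56, and 0.39 without the length trend. This list already moved upward early. At 6 h against 0 h, 6 of its genes had been called higher and none lower, with a median of 0.40. The share called higher over all tested genes was 3.98% then. KNOLLE, the syntaxin of the cell plate, had 32.6 FPKM at 24 h and 17.8 FPKM at 6 h. CKS2 and CKS1, small subunits of cyclin-dependent kinase complexes, rose by 0.95 and 0.74, or 0.30 and 0.19 without the length trend. KNOLLE rose by 0.84, or 0.60 without that trend, and all 13 that rose kept their sign. All 4 genes CYCB1;1 to CYCB1;4, which code for the B1 cyclins of mitosis, rose, by 0.61 to 0.67. CYCB1;2, for example, had 6.93, 10.0 and 16.6 FPKM at 0, 6 and 24 h. The Aurora kinase gene AUR1 and the anaphase activators CDC20.1 and CDC20.2 rose too, by 0.58, 0.74 and 0.55. The gene that fell was MYB3R1, a MYB factor that acts on AACGG elements, with 6.85 FPKM at 24 h and 10.9 FPKM at 6 h. The core AACGG stood in 53.8% of the 13 promoters that rose, and in 54.5% of the 33 promoters of histone genes that rose, against 21.9% of tested genes.

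Core histone genes showed the larger rise. Of 39 tested, 33 rose (84.6%, against 19.6% of all tested genes) and none fell. The median was 1.08, and 0.58 without the length trend. Their summed level was 8671 FPKM at 24 h and 4322 FPKM at 6 h. The histone gene AT5G10390 had 71.5 FPKM at 24 h and 23.7 FPKM at 6 h, and the H2A gene HTA11 had 128 FPKM at 24 h and 44.1 FPKM at 6 h. HTR12, the centromeric histone H3, had 3.03, 5.69 and 12.5 FPKM at 0, 6 and 24 h. After removal of the length trend, 31 of the 33 kept a positive change. Many histone genes code for identical proteins, so reads may be shared among them.

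DNA replication genes held few calls. Of 23 tested, 5 rose, which is 21.7% against 19.6% of all tested genes, and none fell. The changes of 18 were positive, and the median was 0.13, or 0.33 with the length trend removed. TSO2, a small subunit of ribonucleotide reductase that supplies DNA precursors, had 68.8 FPKM at 24 h and 34.1 FPKM at 6 h. The sliding clamp gene PCNA1 had 49.8 FPKM at 24 h and 25.8 FPKM at 6 h. Helicase subunits MCM2 to MCM7 had changes between -0.01 and 0.26, and none was called.

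**Figure D3:**
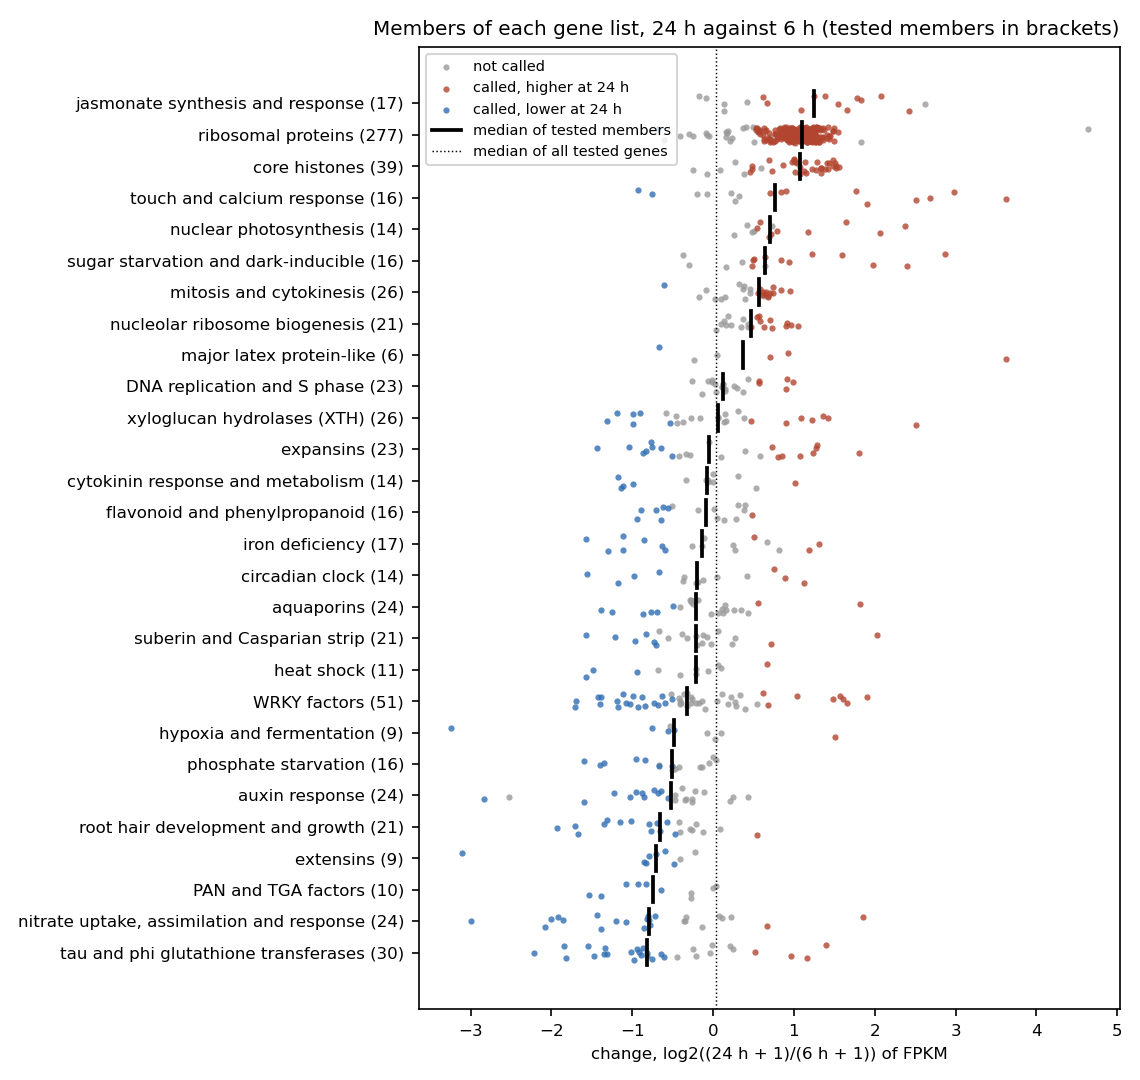
Change between 24 h and 6 h (log2, horizontal) of every tested member of 28 gene lists, 1 list a row, ordered by median. Red points were called higher, blue points lower and grey points not called, the bars mark the list medians, and the dotted line marks the median of all tested genes, 0.03. The jasmonate, ribosomal protein and histone lists lie farthest right and the nitrate and glutathione transferase lists farthest left.

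Genes of the stress hormone jasmonate rose after 6 h. In this pathway the enzymes LOX, AOS, AOC and OPR3 make the hormone, the factor MYC2 activates its targets, and the JAZ proteins, themselves targets, hold MYC2 back. Of 17 tested genes, 11 rose (64.7%, against 19.6% of all tested genes) and none fell. The median was 1.24, and 1.41 without the length trend. The median of the same genes had been -0.20 at 6 h against 0 h, where 6 were called lower and none higher. AOS had 29.9 FPKM at 24 h and 7.66 FPKM at 6 h. The lipoxygenase gene LOX4 had 3.14 FPKM at 24 h and 0.750 FPKM at 6 h, and AOC4 and OPR3 rose by 1.08 and 0.67. MYC2 had 57.7 FPKM at 24 h and 21.4 FPKM at 6 h. Among the repressors, JAZ10 had 32.3 FPKM at 24 h and 5.18 FPKM at 6 h. JAZ8, whose promoter is shown above, had 5.59 FPKM at 24 h and 0.563 FPKM at 6 h, and JAZ1 had 137 FPKM at 24 h and 46.6 FPKM at 6 h. JAZ2, JAZ3 and JAZ9 rose as well, by 1.66, 0.62 and 1.78. JAZ7 had 6.97 FPKM at 24 h and 0.292 FPKM at 6 h and was not called, since the authors' deposited table gives it a q-value of 0.0559. AOC2, AOC3, JAR1, JAZ6 and JAZ12 were not called either, with changes of -0.18 to 0.42. A G-box stood in 36.4% of the 11 promoters that rose, 4 promoters with JAZ8 and AOS among them, against 7.27% of tested genes.

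Touch- and calcium-responsive genes rose as well. Such genes react within minutes to handling, wounding and calcium signals. Of 16 tested, 9 rose (56.2%) and 2 fell (12.5%), against 19.6% and 19.8% of all tested genes. The median was 0.77, or 0.47 without the length trend. CML39 (AT1G76640), a calmodulin-like protein, had 136 FPKM at 24 h and 10.2 FPKM at 6 h, and its neighbour CML38 had 45.5 FPKM at 24 h and 4.91 FPKM at 6 h. The factor gene RRTF1 rose by 2.68 to 16.1 FPKM at 24 h, against 1.66 FPKM at 6 h. TCH4, a xyloglucan-modifying enzyme, had 11.7, 5.72 and 37.3 FPKM at 0, 6 and 24 h. The zinc finger genes ZAT10 and ZAT12 rose by 1.77 and 0.83. Those that fell were CML42 and WRKY33, with changes of -0.75 and -0.93. The 12 largest called rises of all genes also included ERF13, an ethylene response factor, with 25.7 FPKM at 24 h and 1.51 FPKM at 6 h, and ORA47, a factor gene known from jasmonate responses, with 19.4 FPKM at 24 h and 1.46 FPKM at 6 h. The methyltransferase gene FAMT had 23.2 FPKM at 24 h and 1.67 FPKM at 6 h. GRP9, a glycine-rich protein gene, had 27.2 FPKM at 24 h and 3.05 FPKM at 6 h. The uncharacterized genes AT3G19200 and AT5G44550 rose by 2.88 and 2.79.

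WRKY factors, a family known from defence, held more falls than rises. Of 51 tested, 8 rose (15.7%) and 19 fell (37.3%), against 19.6% and 19.8% of all tested genes. The median was -0.33 (-0.39 without the length trend). WRKY40 had 75.0 FPKM at 24 h and 19.3 FPKM at 6 h, and WRKY18, its close relative, had 24.5 FPKM at 24 h and 7.08 FPKM at 6 h. WRKY38 continued upward over the series, with 2.39, 8.53 and 27.2 FPKM at 0, 6 and 24 h. In contrast, WRKY30 had 2.22, 11.1 and 2.74 FPKM at 0, 6 and 24 h, and WRKY42 had 2.52 FPKM at 24 h and 10.5 FPKM at 6 h.

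Sugar starvation and dark-inducible genes, which are switched on when carbon is short, rose. Of 16 tested, 11 rose (68.8%, against 19.6% of all tested genes) and none fell. The median was 0.65, and 0.79 without the length trend. At 6 h against 0 h, 5 of these genes had been called higher and 1 lower, with a median of 0.32. The gene AT3G15450, of the aluminum induced protein family, had 54.6, 273 and 1448 FPKM at 0, 6 and 24 h, the highest level in the list. SEN1 (AT4G35770) had 10.13 FPKM at 24 h and 0.527 FPKM at 6 h. ASN1, the dark-induced asparagine synthetase, had 12.8 FPKM at 24 h and 2.50 FPKM at 6 h. Enzymes that break down branched-chain amino acids rose too: DIN3 by 1.60, the methylcrotonyl-CoA carboxylase subunits MCCA and MCCB by 1.23 and 0.50, and IVD by 0.49. ERD5, the proline dehydrogenase gene, had 287 FPKM at 24 h and 183 FPKM at 6 h, and DIN10 rose by 0.84. The trehalose phosphate synthase family genes TPS11 and TPS8 rose by 0.93 and 0.49, whereas TPS10 had a change of -0.37 and was not called. AT2G33830, a dormancy/auxin associated gene outside the list and among the 12 largest rises, had 210 FPKM at 24 h and 29.0 FPKM at 6 h. The sequence TATCCA, known from sugar starvation genes of cereals, stood in 18.18% of the 11 promoters that rose, against 14.1% of tested genes. With the first 50 transcribed bases included, that share was 45.5%, against 16.2%.

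Nuclear genes for photosynthesis were low in these roots and rose. Of 14 tested, 9 rose (64.3%, against 19.6% of all tested genes) and none fell. The median was 0.71, and 0.46 without the length trend. RBCS1A, a small subunit of Rubisco, had 12.8 FPKM at 24 h and 1.66 FPKM at 6 h. The antenna protein gene LHCB1.3 had 42.9 FPKM at 24 h and 9.51 FPKM at 6 h, and LHCA2 had 4.70 FPKM at 24 h and 0.826 FPKM at 6 h. Of 7 genes set as leaf markers, all of them in this list, 3 were tested and all 3 rose. The markers' summed level was 68.3 FPKM at 24 h and 18.7 FPKM at 6 h, and RBCS2B is listed at 0 at 6 h. The part of leaf or hypocotyl tissue in the change was not tested. The sequence TATCCA stood in 66.7% of the 9 promoters that rose, against 14.1% of tested genes.

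**Figure D4:**
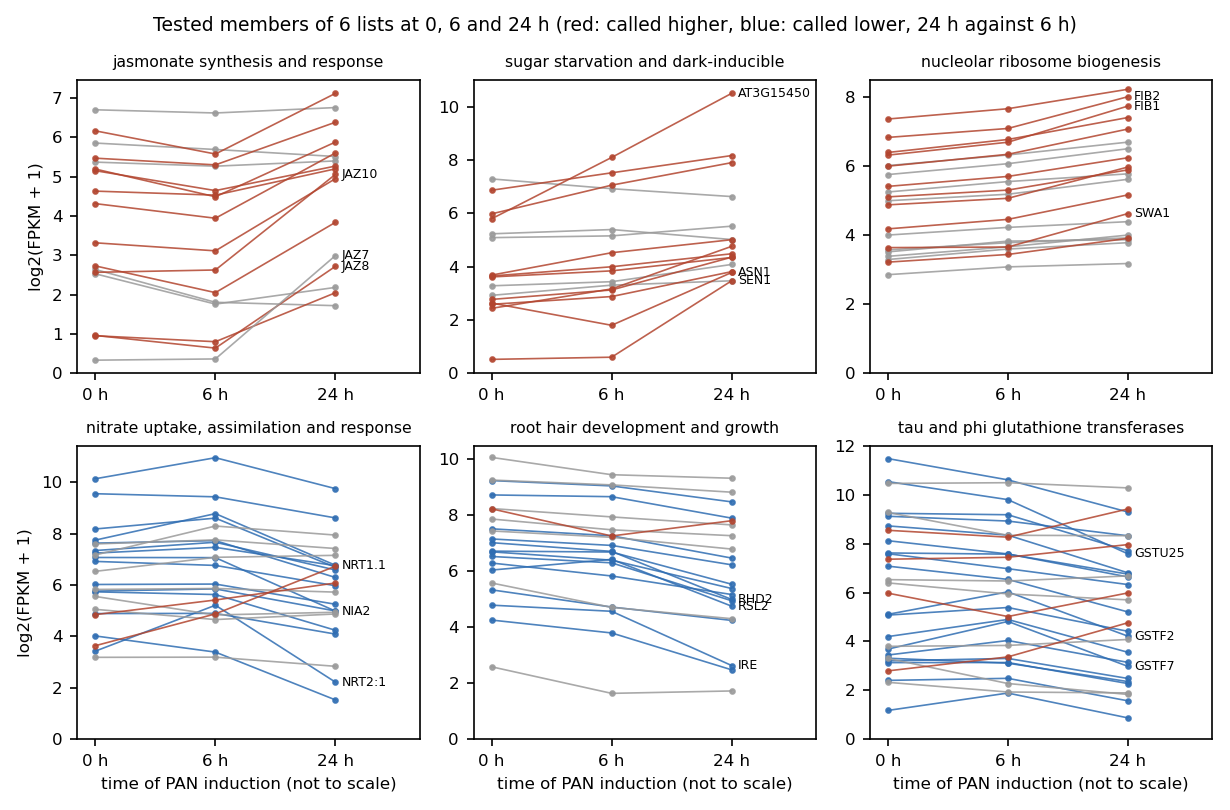
Levels on a log2(FPKM + 1) scale (vertical) at 0, 6 and 24 h (horizontal, not to scale) for the tested members of 6 lists, with 1 line per gene. Red lines were called higher and blue lines lower at 24 h against 6 h, grey lines were not called, and the 3 members with the largest changes are labelled. Of 17 jasmonate genes 11 rise after 6 h, and of 24 nitrate genes 15 fall. Among all tested genes 19.6% rose and 19.8% fell.

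Nitrate uptake and assimilation fell. In roots nitrate is imported by NRT1.1 and NRT2.1, reduced by nitrate reductase (NIA1, NIA2) and nitrite reductase (NIR1), and built into amino acids by glutamine and glutamate synthases. Of 24 tested genes, 15 fell and 2 rose, against 19.8% lower among all tested genes, with a median of -0.80 and of -0.71 without the length trend. The high-affinity transporter gene NRT2:1 had 9.72, 36.0 and 3.64 FPKM at 0, 6 and 24 h, and NRT1.1 had 213, 437 and 108 FPKM. Both thus stood highest at 6 h and lowest at 24 h. Reduction of nitrate moved with uptake: NIA2 had 30.5 FPKM at 24 h and 133 FPKM at 6 h. NIA1 had 1.88 FPKM at 24 h and 9.45 FPKM at 6 h, and NIR1 had 77.2 FPKM at 24 h and 210 FPKM at 6 h. The glutamate synthase gene GLT1 had 102 FPKM at 24 h and 387 FPKM at 6 h. GLN1;2, a cytosolic glutamine synthetase, had 858 FPKM at 24 h and 1978 FPKM at 6 h. Genes that supply reducing power for nitrite reduction, RFNR2, G6PD2 and G6PD3, fell, with changes of -0.86 to -0.71. The 2 genes that rose were BT2, a BTB/TAZ protein known to repress NRT2 transporters, with 105 FPKM at 24 h and 28.3 FPKM at 6 h, and LBD39, a repressor of nitrogen-responsive genes, with 66.4 FPKM at 24 h and 41.6 FPKM at 6 h. LBD37, a related repressor, fell by 0.79. AT2G43500, an RWP-RK family regulator outside the list and among the 12 largest falls, had 1.72 FPKM at 24 h and 15.4 FPKM at 6 h.

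The TGA factors TGA1 and TGA4, which are known regulators of nitrate transporters, belong to PAN's own family. Of the 10 family genes, PAN included, 6 fell (60%, against 19.8% of all tested genes) and none rose. The median was -0.74 (-0.71 without the length trend). TGA1 had 94.6 FPKM at 24 h and 201 FPKM at 6 h, and TGA4 had 17.8 FPKM at 24 h and 48.4 FPKM at 6 h. TGA7 had 12.05 FPKM at 24 h and 36.8 FPKM at 6 h. TGA3 and TGA10 fell, with changes of -0.65 and -0.93. TGA2, TGA5, TGA6 and TGA9 were not called, with changes of -0.28 to 0.03. The TGA core TGACG stood in 18.5% of promoters of all genes that rose and in 20.4% of those that fell, against 19.3% of tested genes. The palindromic site TGACGTCA was rare, in 0.385% of the promoters that rose and 0.759% of those that fell, against 0.515% of tested genes. These shares rest on only 13 and 26 promoters.

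Other nutrient lists held falls or were mixed, against 19.6% higher and 19.8% lower among all tested genes. Of 16 tested phosphate starvation genes, 7 fell (43.8%) and none rose, with a median of -0.51 and of -0.53 without the length trend. The phosphate transporter gene PHT1;4 had 38.7 FPKM at 24 h and 119 FPKM at 6 h, and SQD2, which makes sulfolipids that replace phospholipids, had 34.3 FPKM at 24 h and 92.3 FPKM at 6 h. Among 17 iron genes, 7 fell and 3 rose. The proton pump gene AHA2 had 330 FPKM at 24 h and 985 FPKM at 6 h. The iron regulator FIT, named FRU in the annotation, had 142, 323 and 149 FPKM at 0, 6 and 24 h. The iron transporter gene IRT1 moved the other way, with 53.6 FPKM at 24 h and 23.1 FPKM at 6 h, as did ferritin FER1, with 165 FPKM at 24 h and 65.9 FPKM at 6 h. The iron list's median was -0.14, and 0.0010 without the length trend.

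Glutathione transferases of the tau and phi classes, which conjugate glutathione to toxic or reactive compounds and are known targets of TGA factors, fell. Of 30 tested, 19 fell (63.3%) and 4 rose (13.3%), against 19.8% and 19.6% of all tested genes. The median was -0.82, the lowest of the 28 lists, and -1.18 without the length trend. GSTU25 had 1489, 892 and 191 FPKM at 0, 6 and 24 h. GSTU19 had 627 FPKM at 24 h and 1563 FPKM at 6 h, and its relatives GSTU22 and GSTU24 fell, with changes of -1.54 and -1.47. In the phi class GSTF7 had 11.8, 27.2 and 6.87 FPKM at 0, 6 and 24 h. GSTF9 rose, with 684 FPKM at 24 h and 307 FPKM at 6 h, as did ATGSTF13, GSTU6 and GSTU27, by 1.40, 0.97 and 0.52. The core TGACG stood in 36.8% of the 19 promoters that fell, against 19.3% of tested genes. Shares as high were found in lists that rose, with 45.5% of the 33 promoters of core histone genes that rose, 44.4% of 9 in the touch and calcium list and 36.4% of 11 in the jasmonate list. Several of these genes lie in tandem arrays of similar sequence, such as GSTU24 and GSTU25, so reads may be shared.

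Root hair genes fell. Hair growth is directed by the factors RHD6, RSL2 and RSL4 and driven by wall loosening, NADPH oxidase and cellulose synthase-like enzymes at the tip. Of 21 tested genes, 13 fell (61.9%, against 19.8% of all tested genes) and 1 rose. The median was -0.66, and -0.67 without the length trend. At 6 h against 0 h, 7 of these genes had been called lower and none higher, with a median of -0.30. RSL4 had 29.5 FPKM at 24 h and 76.9 FPKM at 6 h, and RSL2 had 25.7 FPKM at 24 h and 83.9 FPKM at 6 h. RHD2, the NADPH oxidase of growing hairs, had 30.5 FPKM at 24 h and 102 FPKM at 6 h. The kinase gene IRE had 5.15 FPKM at 24 h and 22.5 FPKM at 6 h. CSLD3, AHA7 and PIP5K3 fell, with changes of -1.01, -1.15 and -1.31. The gene that rose was PRP1, a proline-rich wall protein, with 295, 150 and 220 FPKM at 0, 6 and 24 h. In bulk samples fewer cells of a type and less RNA per cell cannot be told apart.

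Structural wall proteins and wall-modifying enzymes divided by family. Of 9 extensins and related wall proteins tested, 7 fell and none rose, with a median of -0.71 and of -0.52 without the length trend. At 6 h against 0 h, 5 of these genes had been called lower and none higher, with a median of -0.65. EXT4 had 411, 184 and 20.5 FPKM at 0, 6 and 24 h, and EXT3, the most abundant, had 2424 FPKM at 24 h and 4290 FPKM at 6 h. EXT13 had 429 FPKM at 24 h and 778 FPKM at 6 h. Expansins, which loosen walls, split evenly, with 8 of 23 higher and 8 lower (34.8% each). The shares over all tested genes were 19.6% higher and 19.8% lower. The expansin median was -0.05 (-0.29 without the length trend). EXPA16 had 0.0369, 2.61 and 11.6 FPKM at 0, 6 and 24 h, whereas EXPA1 had 28.2, 88.9 and 32.4 FPKM. Of 26 tested xyloglucan hydrolase and transglucosylase genes, 7 rose (26.9%) and 6 fell (23.1%), not far from the shares over all tested genes. At 6 h against 0 h, 16 of these genes had been called lower and 1 higher, with a median of -0.55. Their median for 24 h against 6 h was 0.06, and it turned to -0.40 with the length trend removed. Those that fell from 6 to 24 h included XTH17, XTH18 and XTH19, which are close relatives, with changes of -1.31, -0.99 and -0.99. The aquaporins held 2 genes that rose (8.33%) and 6 that fell (25%) among 24 tested. The share that fell was near the 19.8% of all tested genes. The aquaporin median was -0.21, and -0.34 without the length trend. At 6 h against 0 h, 11 aquaporin genes had been called lower and 1 higher, with a median of -0.52. NLM1, a channel of the NOD26-like class, had 891, 444 and 169 FPKM at 0, 6 and 24 h, and PIP2;8 rose to 5.62 FPKM at 24 h, against 0.884 FPKM at 6 h.

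Auxin-responsive genes held falls and no rises among those called. The Aux/IAA genes are rapid targets and repressors of auxin signalling, and the GH3 enzymes conjugate auxin to amino acids. Of 24 tested, 11 fell (45.8%, against 19.8% of all tested genes), none rose and 13 were not called, with a median of -0.52 and of -0.64 without the length trend. GH3.1 had 6.04, 20.12 and 1.96 FPKM at 0, 6 and 24 h. IAA1 had 18.1 FPKM at 24 h and 56.5 FPKM at 6 h, and IAA19 had 6.19 FPKM at 24 h and 13.6 FPKM at 6 h. IAA14 and IAA16 fell, with changes of -0.88 and -0.74. IAA5 had 0.0566 FPKM at 24 h and 5.06 FPKM at 6 h and was not called, its q-value being 0.279 in the authors' deposited table. In the cytokinin list 4 of 14 tested genes fell and 1 rose, and all 5 are type-A response regulators. The list's median was -0.07, or -0.19 with the length trend removed. ARR6 had 11.99 FPKM at 24 h and 27.1 FPKM at 6 h, while ARR16 had 2.75 FPKM at 24 h and 0.862 FPKM at 6 h.

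The remaining stress and metabolic lists were small and held calls in both directions, against 19.6% higher and 19.8% lower among all tested genes. Of 9 tested hypoxia and fermentation genes, 4 fell and 1 rose, with a median of -0.49 and of -0.35 without the length trend. PDC1 (AT4G33070), a pyruvate decarboxylase, had 26.9, 23.1 and 1.53 FPKM at 0, 6 and 24 h, the largest called fall of all genes, and its relative PDC2 fell by 0.56. HRE1, an ethylene response factor of low oxygen, rose to 8.89 FPKM at 24 h, against 2.47 FPKM at 6 h. Of 11 tested heat shock genes, 3 fell and 1 rose, with a median of -0.21 and of -0.34 without the length trend. HSP70 (AT3G12580), HSP90.1 and HSP101 had changes of -1.57, -1.48 and -0.94, and DREB2A rose by 0.67. Among 16 flavonoid and phenylpropanoid genes, 6 fell and 1 rose, and the median was -0.09 (-0.15 without the length trend). The falls were in the early phenylpropanoid and lignin steps, with PAL2 at 108 FPKM at 24 h and 208 FPKM at 6 h and CAD5 at 47.2 FPKM at 24 h and 88.4 FPKM at 6 h. The gene that rose was CHI, a flavonoid enzyme, by 0.48. Of 14 tested clock genes, 3 rose and 4 fell: GI, LNK1, PRR7 and LNK2 had changes of -1.56, -1.18, -0.98 and -0.67, and ELF4, BOA and the RNA-binding CCR2 (AT2G21660) rose by 0.75, 0.89 and 1.13. The clock list's median was -0.20, or -0.014 with the length trend removed. The 6 major latex protein-like genes tested held 3 that rose and 1 that fell, with a median of 0.38 and of -0.036 without the length trend, and MLP328 had 33.0 FPKM at 24 h and 1.76 FPKM at 6 h.

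Of 21 tested suberin and Casparian strip genes, which build the barriers of the endodermis, 6 fell (28.6%) and 2 rose (9.52%). The shares over all tested genes were 19.8% and 19.6%. The list's median was -0.21, and -0.27 without the length trend. At 6 h against 0 h, 8 of these genes had been called higher and 4 lower. The fatty acid hydroxylase gene CYP86A1 had 7.41 FPKM at 24 h and 1.06 FPKM at 6 h. In contrast, GPAT7 had 0.725, 3.47 and 0.509 FPKM at 0, 6 and 24 h. The transporter gene ABCG6 had 2.28, 9.39 and 3.48 FPKM at those times, so both came closer to their 0 h level. OSM34, an osmotin and the largest called rise of all genes, had 21.9 FPKM at 24 h and 0.768 FPKM at 6 h. RNS1, a ribonuclease, had 9.04, 21.2 and 1.83 FPKM at 0, 6 and 24 h. Other genes among the 12 largest falls were the acyltransferase gene PMAT1, the glucosidase gene BGLU11, the kinase-like gene AT1G51840, the TRAF-like gene AT3G20360, the root meristem growth factor-like gene AT3G02242 and the uncharacterized AT4G08555. Their changes ranged from -3.13 in AT3G20360 to -2.61 in BGLU11.

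Cell type markers were set beside these groups. Some are also members of the lists above, such as RHD2 and RSL4 of root hairs and CASP5 of the endodermis. Their values are in part a repeat of those lists. Among all tested genes, 19.6% rose and 19.8% fell. Of 5 root cap markers 4 were tested and all 4 fell, with changes from -1.27 in BRN2 to -0.87 in SMB, a median of -1.05 and one of -1.34 without the length trend. The summed level of the cap markers was 43.7 FPKM at 24 h and 99.8 FPKM at 6 h. Of 8 trichoblast and root hair markers, all of which had a negative change, 6 fell, with a median of -0.71 and of -0.63 without the length trend. Their sum was 1260 FPKM at 24 h and 1736 FPKM at 6 h. All but 1 of the 8 endodermis markers were not called, with CASP1 at 536 FPKM at 24 h and 588 FPKM at 6 h, and CASP5 rose by 0.72. The endodermis median was -0.05, or -0.36 with the length trend removed. The q-value was 0.066 or higher in the authors' deposited table for each of the 2 non-hair epidermis, 6 xylem and 1 phloem markers tested, and none was called. The summed level of the non-hair epidermis markers was 44.2 FPKM at 24 h and 36.1 FPKM at 6 h. In the stem cell niche list BBM had 2.77 FPKM at 24 h and 0.775 FPKM at 6 h, and PLT1 had 2.33 FPKM at 24 h and 1.297 FPKM at 6 h. PLT2, PLT3 and AGL42 were not called, and WOX5, the quiescent centre marker, lay below the minimum mean. Of 3 tested markers of pericycle and lateral root initiation, TMO6 rose by 1.17, and GATA23 and LBD16 were not called, with changes of -0.78 and -0.48. The sum of that marker list was 12.6 FPKM at 24 h and 12.9 FPKM at 6 h. The marker sums of the niche were 20.6 FPKM at 24 h and 14.3 FPKM at 6 h. The part of tissue composition in the rise of growth genes and the fall of root hair genes was not tested.

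**Figure D5:**
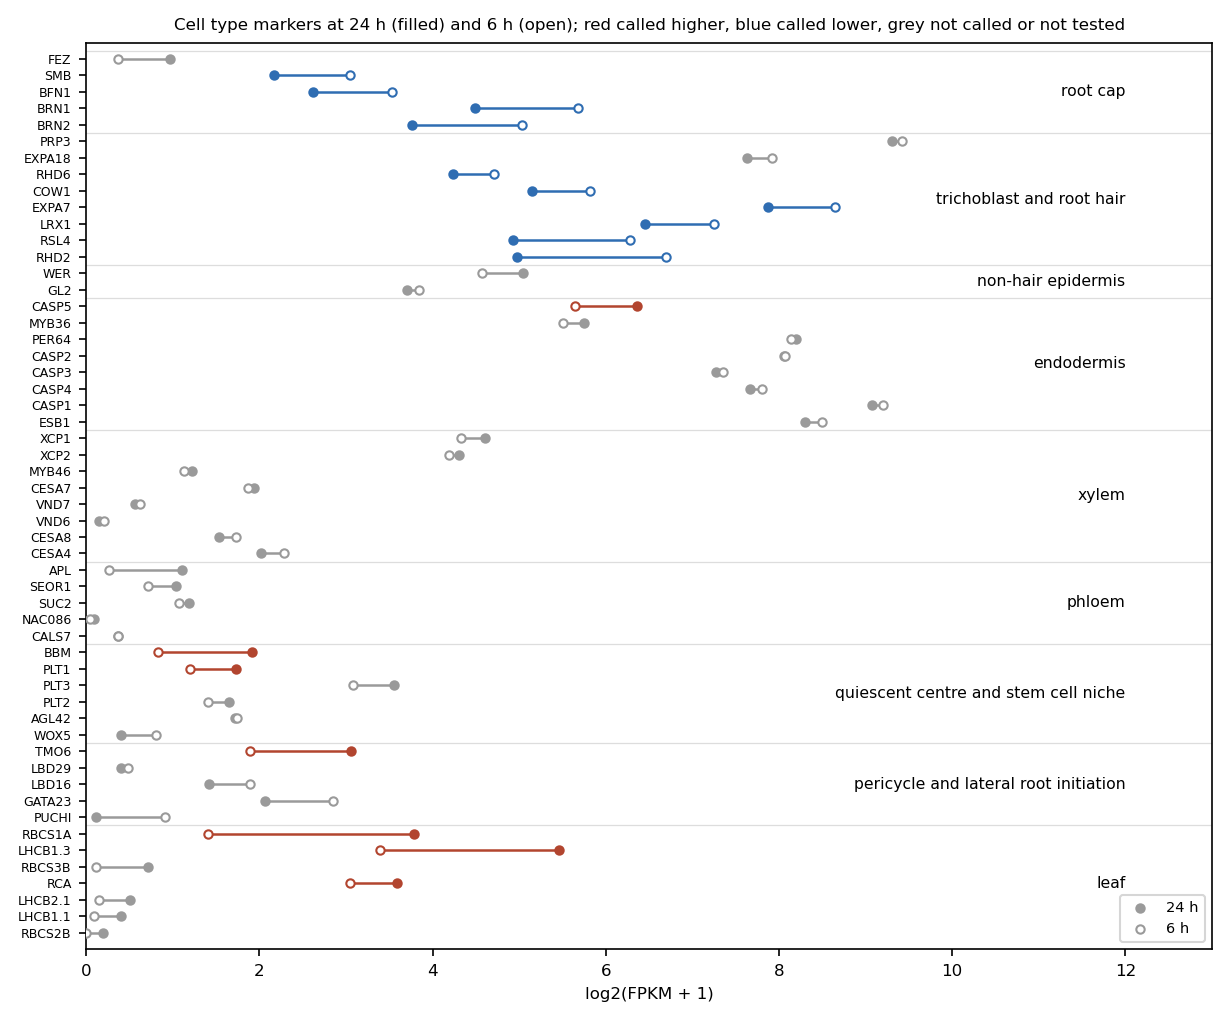
Levels of cell type markers on a log2(FPKM + 1) scale (horizontal) at 24 h (filled) and 6 h (open), 1 marker a row, grouped by cell type. Red pairs were called higher, blue pairs lower, and grey pairs were not called or lay below the minimum mean of 1 FPKM. The 4 tested root cap markers and 6 of 8 root hair markers fell, and 7 of 8 endodermis markers were not called. Among all tested genes 19.8% fell.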

How the data were processed

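Root samples of 9 libraries (3 each at 24, 6 and 0 h) were read as 100 bp single ends from poly(A) directional libraries, per the labels' protocols. TopHat2 2.0.13, Cufflinks 2.1.1, Cuffdiff and the TAIR10 build are named in the submitters' processing notes. The deposited table holds 1 pooled FPKM value per gene and time, with log2 fold changes and q-values, per the file headers; the unit FPKM is taken from the tools. The authors' log2 fold changes and q-values come from their own comparison, and the p-value model is not given in the sources used here. With no value per replicate limma could not be run, and the authors' q-value below 0.05, with a mean of at least 1 FPKM, served as the call.

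Changes used a pseudocount of 1. Rows that join loci (282 of 33201) entered the counts over all genes and were left out of lists. Product names, longest spliced transcripts and promoters came from RefSeq TAIR10.1, which matched 32218 of 32919 single-locus rows (97.9%). The length trend was removed as medians over 50 length bins. Motifs were searched on both strands of the 250 bases before each annotated start, with overlaps allowed. Alternatives were no minimum or a minimum mean of 5, a q-value limit of 0.01, adjustment within this comparison, a minimum change of 1, a pseudocount of 0.1, quantile and median-of-ratios scaling, and removal of the length trend; the direction of calls after that removal was added after the data were seen.

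The members and lists were chosen with earlier results of these data known, and lists taken from product names were trimmed to their family after values had been seen. The motif shares quoted and the promoters shown were likewise chosen after the shares were seen. Named were PAN, the 12 largest called rises and the 12 largest called falls, the 3 called members of each list with the largest change, and every called marker. Further members are named to fill out a pathway. The fit of the length correction and of the q-value recovery was tested on simulated data. Python 3.11.15, pandas 2.3.3, numpy 2.4.6 and scipy 1.17.1 were used.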

Additional observations from a re-analysis of the deposited data

How the results depend on the processing

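The 3499 genes called higher and 3535 called lower stayed within 1.5 times these counts under every alternative run except a minimum change of 1, which left 2055 calls, 1151 higher and 904 lower. After removal of the length trend, 6707 of the 7034 called genes kept their sign. The rest include called genes of unknown length, for which no trend could be removed. Of the median changes of the lists over all alternatives, 190 moved little, 27 moved further without a change of sign and 4 changed sign. Without the length trend, the median was 0.0010 for iron deficiency genes, -0.40 for XTH genes and -0.036 for major latex protein-like genes. Quantile normalization gave -0.016 for the xylem markers. The changes of the 115 genes that the naming rule gave kept their sign in all 575 values recomputed for them; the further genes named to fill out a pathway are not among them. The telo-box share of ribosomal promoters moved to 39.5% with the first 50 transcribed bases, and the TATCCA share of sugar starvation promoters to 45.5%. The cause was not tested for any of these shifts.

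No paired analysis was possible because replicates enter only as 1 combined value for each time. For the same reason leaving out a replicate was not run. Without counts, depth sets a limit that is unknown, and genes near 1 FPKM carry the least certain values.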

Other observations

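Product names were grouped into families without regard to the lists, and the families with the largest shares of called genes among the 132 with at least 15 tested members are described here. They were chosen by their values and carry no test. The shares over all tested genes were 19.6% higher and 19.8% lower. Beyond ribosomal proteins and histones, small nuclear ribonucleoproteins, which form the core of the spliceosome, stood out: 17 of 22 tested rose and none fell, with a median change of 0.99 and of 0.43 without the length trend. LSM3A had 79.1 FPKM at 24 h and 33.3 FPKM at 6 h. Nucleic acid-binding OB-fold-like proteins followed, with 17 of 27 higher and none lower, and a median of 0.70 (0.35 without the length trend). Of 23 polyketide cyclase and lipid transport proteins, 12 rose and 1 fell, with a median of 0.64 (0.35 without the length trend). GATA transcription factors held 8 that rose and 2 that fell among 16, with a median of 0.65 (0.45 without the length trend). GATA4 had 111 FPKM at 24 h and 33.5 FPKM at 6 h, GATA2 had 103 FPKM at 24 h and 36.8 FPKM at 6 h, and GATA19 had 4.32 FPKM at 24 h and 0.615 FPKM at 6 h.

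On the falling side, tau glutathione transferases led, with 15 of 22 lower (68.2%, against 19.8% of all tested genes) and 2 higher. Genes named for the plant invertase/pectin methylesterase inhibitor superfamily form 2 groups, with and without the word protein in the product name. Their median transcript lengths differ, at 978 bp with the word and 2132 bp without it. The name is that of a superfamily and does not say which members are inhibitors. The group without the word protein had 10 of 15 lower and 1 higher, and the group with it had 5 of 15 higher and 1 lower. Their median changes were -0.72 and 0.21, and -0.59 and -0.23 without the length trend. Mannose-binding lectin genes had 10 of 16 lower and 2 higher. The lectin gene AT5G35940 rose, with 86.3 FPKM at 24 h and 33.3 FPKM at 6 h, while AT5G49870 had 6.37 FPKM at 24 h and 19.1 FPKM at 6 h. Ypt/Rab-GAP genes, which regulate membrane traffic, had 12 of 20 lower and none higher. Their median was -0.54, and -0.35 without the length trend. Amino acid transporter genes had 11 of 19 lower and 1 higher, and AT3G09330 had 3.69 FPKM at 24 h and 10.8 FPKM at 6 h. Disease resistance family genes had 27 of 46 lower and 1 higher, with a median of -0.60. Their median transcript length was 3823 bp, and without the length trend the median was -0.15.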
